A study of Mus musculus with 10 samples.

Results

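Heat-shock chaperones bind unfolded proteins, and 10 of their genes are described here in supporting cells of the mouse utricle. Cryab, Hspb1, Hspb6 and Hspb8 encode small heat-shock proteins, Hspa1a, Hspa1b and Hspa8 encode Hsp70 proteins, Hsp90aa1 encodes an Hsp90, Dnajb1 a J-domain partner of Hsp70 and Hsph1 an Hsp110 exchange factor. The 10 genes were picked by family, and the family was picked because Cryab was higher in the 5-day TRULI libraries, with the condition read from the names of the deposited tables. The contrasts that use those libraries are therefore descriptions for all 10 genes and carry no p-value for them. TRULI is an inhibitor of the Lats kinases of the Hippo pathway. Utricles, the gravity-sensing organs of the inner ear, were taken from mice of postnatal day 21 and cultured, and supporting cells that carried the Lfng-EGFP reporter were then sorted by fluorescence. The 4 groups are DMSO_d5 and TRULI_d5, collected after 5 days with 0.1% DMSO or with 10 μM TRULI in 0.1% DMSO, and DMSO_d10 and TRULI_d10, collected after the same 5 days and 5 more days of recovery without the compound. The sample labels give 3 libraries to each 5-day group and 2 to each 10-day group. The study describes biological replicates of every condition, and the labels do not say which animals each library came from, so that p-values measure the spread between these libraries.

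The labels and the names of the deposited tables disagree for 4 of the 10 libraries. The libraries labelled TRULI_d5 replicates 1 and 2 carry the names DMSO_d10 replicates 1 and 2, and the libraries labelled DMSO_d10 replicates 1 and 2 carry the names TRULI_d5 replicates 2 and 3. The library labelled TRULI_d5 replicate 3 is named TRULI_d5 replicate 1, which is the same condition. Grouping by label is the main one, and the main results for the members are also given by name. Without the 4 libraries the 5-day comparison holds 3 DMSO libraries against 1 TRULI library, and no DMSO library is left for the comparison after withdrawal. The libraries labelled DMSO_d5 hold 2463872, 3411616 and 3852501 counts, those labelled TRULI_d5 6255149, 3115752 and 3565654, those labelled DMSO_d10 3918989 and 4235355, and those labelled TRULI_d10 5404033 and 5236704. Compared over all genes, the libraries divided by the day in the deposited name. The chi-square per degree of freedom was 15.26 to 53.6 for pairs within the 6 libraries named d5, 29.27 to 52.07 within the 4 named d10 and 105.42 to 184.48 between them. The 4 libraries in conflict thus lay nearer to those that share the day of their name than to the other libraries. The mitochondrial ribosomal RNA mt-Rnr2 separates the libraries in the same way as the day in the deposited name. It took 13.02% to 26.4% of the counts in the 6 libraries named d5 and 1.45% to 2.53% in the 4 libraries named d10. Epcam, an epithelial adhesion gene, was the most abundant of 12 supporting-cell markers, with a mean of 2312.1 FPKM (counts per length of transcript, scaled to the protein-coding total), and all 12 markers were detected in every library. Lfng, whose promoter drives the sorted reporter, lay at 290.6 to 564.5 CPM (counts per 1e6 of the library size scaled by TMM) in the 6 libraries named d5 and at 21.25 to 100.4 CPM in the 4 named d10. Endothelial and macrophage markers were low. The endothelial list summed to at most 2.96 CPM in any library, and Cldn5 was at 0 in all 10. The macrophage list summed to at most 18.15 CPM, with Cd68 most abundant by mean FPKM and Cx3cr1, C1qa and C1qb at 0 throughout. These are bulk samples, in which fewer cells of a type and less RNA per cell cannot be told apart.

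Small heat-shock proteins hold unfolding proteins in a soluble state without using ATP, and Hsp70 proteins then refold them in ATP-driven cycles that J-domain proteins start and Hsp110 proteins reset. Hsp90 proteins finish the folding of kinases and receptors. Many of these genes are switched on by heat-shock factor 1, which binds inverted repeats of GAA and TTC. Hspa8 and the other constitutive forms are abundant without stress, while Hspa1a and Hspa1b are the classic inducible pair, and Hsp70 proteins are known in the inner ear for protecting hair cells from toxic drugs.

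Promoter sequences are shown for 5 members because Hspa1a and Hspa1b moved together among the libraries (Pearson r = 0.78) and because the heat-shock element is the best-known shared control sequence of the family. The division of reads between these 2 genes is uncertain, as given below, so this r is only a description. Windows of RefSeq (GRCm38.p6) were found for 7 of the 10 members and not for Cryab, Hspa8 and Hsp90aa1. Each line gives the 160 bases before a RefSeq start of the gene, 5′ to 3′, with capitals marking matches to the heat-shock element cores GAANNTTC and TTCNNGAA or to the Tead core GGAATG on either strand.
Hspb1 (chr5:135887759-135887918, + strand): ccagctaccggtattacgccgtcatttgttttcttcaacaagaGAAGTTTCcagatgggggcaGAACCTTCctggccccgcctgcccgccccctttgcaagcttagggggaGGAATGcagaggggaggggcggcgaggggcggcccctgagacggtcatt
Hspb8 (chr5:116422865-116423024, - strand): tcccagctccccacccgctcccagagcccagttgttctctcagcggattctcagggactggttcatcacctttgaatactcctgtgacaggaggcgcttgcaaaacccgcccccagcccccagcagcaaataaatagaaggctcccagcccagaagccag
Hspa1a (chr17:34972157-34972316, - strand): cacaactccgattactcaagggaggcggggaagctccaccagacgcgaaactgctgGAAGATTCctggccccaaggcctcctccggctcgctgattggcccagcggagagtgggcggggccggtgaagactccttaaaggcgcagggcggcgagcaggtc
Hspa1b (chr17:34959239-34959398, - strand): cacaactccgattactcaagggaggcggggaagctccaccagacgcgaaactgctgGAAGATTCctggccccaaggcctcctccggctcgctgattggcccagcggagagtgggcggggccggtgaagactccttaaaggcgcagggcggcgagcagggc
Hsph1 (chr5:149636316-149636475, - strand): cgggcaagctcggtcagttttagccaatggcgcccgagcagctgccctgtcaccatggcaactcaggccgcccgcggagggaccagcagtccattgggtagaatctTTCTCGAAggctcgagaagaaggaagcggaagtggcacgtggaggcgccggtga
The 2 matches to GAANNTTC before Hspb1 began 117 and 97 bases before the start, and its GGAATG began 49 bases before it. Hspa1a and Hspa1b each had 1 match, 104 bases before the start, and their windows were alike at 247 of 250 positions. Hsph1 had 1 match to TTCNNGAA before its RefSeq start and the second window of Hspb6 had 1 match to GAANNTTC, and both matches lie inside the gene as GENCODE annotates it. Hspb8 and Dnajb1 had none in the 250 bases searched. Of 27025 genes with a RefSeq window, 14.5% had a match to either heat-shock core in the same 250 bases, 1.67% had at least 2, and 14.4% had GGAATG. A match describes the letters of the window and was not tested as a binding site.

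Cryab encodes alphaB-crystallin, the most abundant small heat-shock protein RNA in these cells, and lies on chromosome 9 (GRCm38, 50751325 to 50756636, + strand). It stood at 20.8, 34.6 and 43.0 CPM in the libraries labelled DMSO_d5, at 110.3, 279 and 339 CPM in those labelled TRULI_d5 replicates 1 to 3, at 304 and 642 CPM in those labelled DMSO_d10 and at 391 and 273.0 CPM in those labelled TRULI_d10. All 7 other libraries lay above the 3 libraries labelled DMSO_d5. By label the mean was 32.8 ± 11.2 CPM (SD, n = 3) in DMSO_d5, 243.0 ± 119 (n = 3) in TRULI_d5, 332.0 ± 83.4 (n = 2) in TRULI_d10 and 473.0 ± 239 (n = 2) in DMSO_d10. The libraries of the last 3 groups overlapped. By name the order was DMSO_d5, then DMSO_d10 at 195 ± 120 CPM, TRULI_d10 at 332.0 ± 83.4 and TRULI_d5 at 428 ± 186 (n = 3). Both libraries named DMSO_d10 lay below the 3 named TRULI_d5, and those named TRULI_d10 overlapped both groups. At 5 days the log2 fold change of Cryab was 2.91 ± 0.50 (SE) by label, 3.72 ± 0.37 by name and 3.36 without the 4 libraries. Cryab overlaps Hspb2, a small heat-shock gene on the opposite strand, and whether the counting used strand is not given in the sources used here. Hspb2 had 0 to 5 counts in 9 libraries and 30 counts in the library labelled TRULI_d10 replicate 1.

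**Figure D1:**
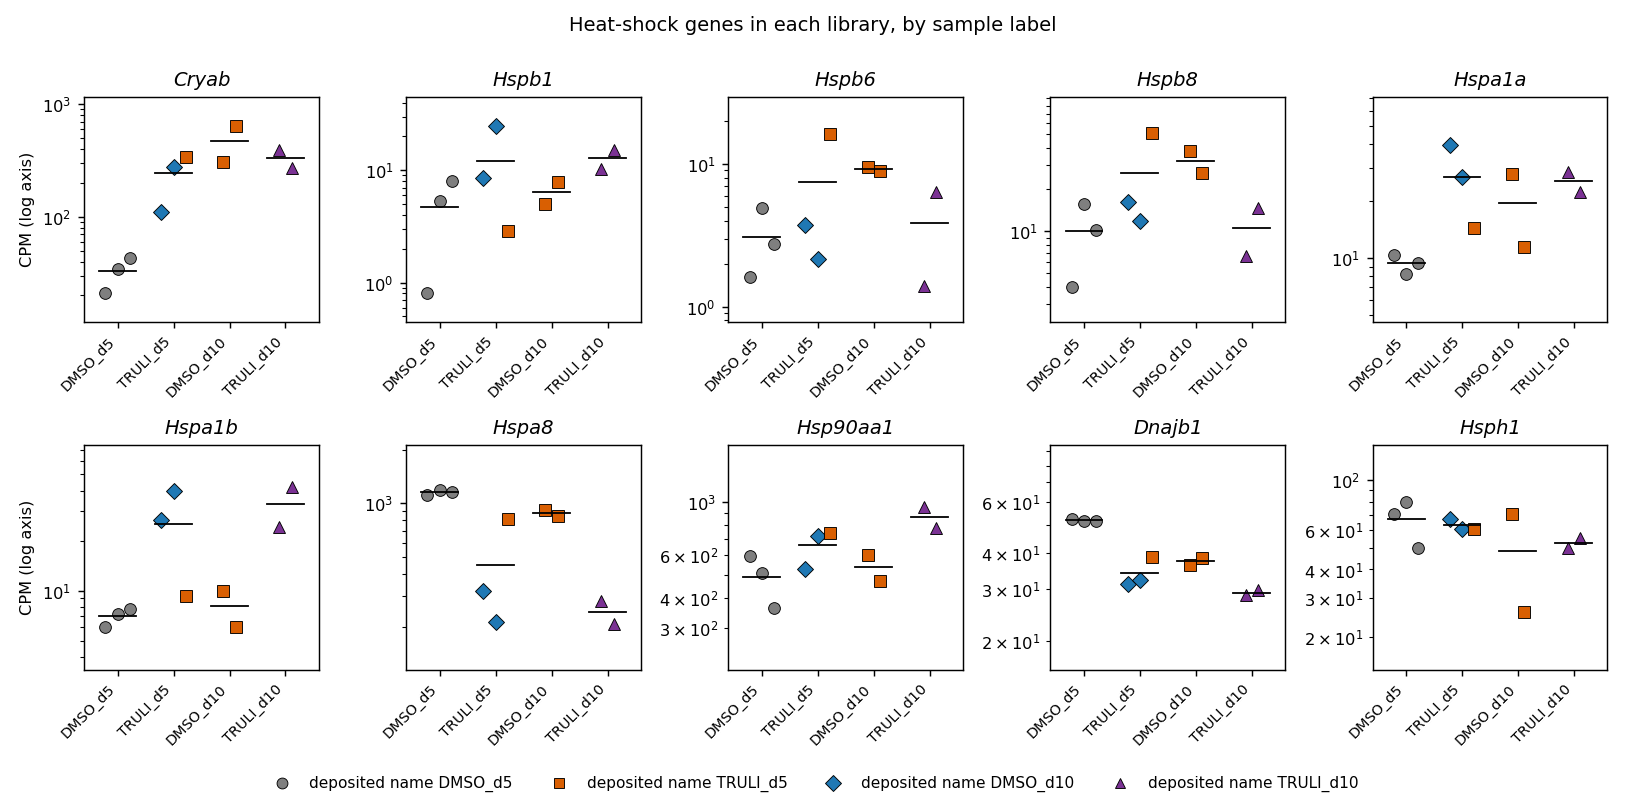
CPM of the 10 members in each library, on a log axis, with columns for the sample labels, symbols and colours for the deposited names and bars for the mean of each labelled group. In Cryab the 3 libraries labelled DMSO_d5 (20.8 to 43.0 CPM) lie below the other 7 (110.3 to 642 CPM), and in Hspa8 the libraries separate by the day in the deposited name.

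Hspb8, which works with the co-chaperone Bag3 in the removal of damaged proteins, and Hspb6, a small heat-shock protein best known from muscle, varied together over the 10 libraries. The Pearson r of their log2(CPM + 1) was 0.94, a description over libraries that share conditions. Hspb8 stood at 4.01, 15.8 and 10.2 CPM in the libraries labelled DMSO_d5, at 16.3, 11.9 and 51.1 CPM in those labelled TRULI_d5, at 37.6 and 26.3 CPM in those labelled DMSO_d10 and at 6.63 and 14.7 CPM in those labelled TRULI_d10. Hspb6 stood at 1.60, 4.94 and 2.73 CPM, at 3.76, 2.16 and 16.3 CPM, at 9.47 and 8.98 CPM and at 1.395 and 6.32 CPM in the same order. For both genes the 3 highest libraries are the 3 named TRULI_d5, of which 2 are labelled DMSO_d10. At 5 days the log2 fold change of Hspb8 was 1.42 ± 0.68 by label, 1.94 ± 0.44 by name and 0.48 by label without TRULI_d5 replicate 3. That of Hspb6 was 1.27 ± 0.88 by label, 1.90 ± 0.51 by name and -0.05 by label without TRULI_d5 replicate 3. Without the 4 libraries the values were 2.34 for Hspb8 and 2.38 for Hspb6. Hspb6 rests on 4 to 62 counts a library and overlaps Proser3 and Lin37 on the opposite strand.

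Hspb1 encodes Hsp27, which also binds actin filaments. It held 2 to 75 counts a library, from 0.80 CPM in the library labelled DMSO_d5 replicate 1 to 24.9 CPM in that labelled TRULI_d5 replicate 2. The 4 libraries named d10 held the 4 highest values, 8.47 to 24.9 CPM, against 0.80 to 7.95 CPM in the 6 named d5. Its 5-day log2 fold change was 1.34 ± 0.93 by label, 0.16 ± 0.68 by name and -0.72 without the 4 libraries. By label it was 0.29 without TRULI_d5 replicate 2. By name it was -0.32 without DMSO_d5 replicate 1 and -0.28 without the library named TRULI_d5 replicate 3, so that its sign rested on single libraries.

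Hspa1a and Hspa1b, the inducible Hsp70 genes, lie next to each other on chromosome 17. Of the 100-base stretches of the Hspa1a transcripts, 47.1% also occur in Hspa1b, so the division of reads between the 2 genes is uncertain. Hspa1b stood at 6.01, 7.25 and 7.70 CPM in the libraries labelled DMSO_d5, at 26.5, 39.6 and 9.22 CPM in those labelled TRULI_d5, at 9.97 and 6.06 CPM in those labelled DMSO_d10 and at 24.1 and 42.0 CPM in those labelled TRULI_d10. The 4 libraries named d10 were at 24.1 CPM or more and the 6 named d5 at 9.97 CPM or less. Hspa1a stood at 8.24 to 27.7 CPM in the libraries named d5 and at 22.2 to 39.4 CPM in those named d10, with overlap. At 5 days the log2 fold change was 1.85 ± 0.57 for Hspa1b and 1.54 ± 0.48 for Hspa1a by label, 0.28 ± 0.41 and 0.95 ± 0.40 by name, and 0.40 and 0.63 without the 4 libraries. The larger values by label therefore came from the libraries labelled TRULI_d5 replicates 1 and 2, which are named DMSO_d10.

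Hspa8, the constitutive Hsp70, had the highest mean level per length, 545 ± 320 FPKM (SD, n = 10), beside 303 ± 258 FPKM for Cryab and 290.5 ± 64.1 FPKM for Hsp90aa1. The order changed between groups, since in the libraries labelled TRULI_d10 Cryab (367.3 ± 120.4 FPKM) and Hsp90aa1 (343.3 ± 69.03 FPKM) lay above Hspa8 (182.3 ± 26.38 FPKM). The other 7 members had mean levels of 7.16 to 22.4 FPKM. Hspa8 stood at 1114.5, 1187.9 and 1157.6 CPM in the libraries labelled DMSO_d5, at 320.1, 215 and 817 CPM in those labelled TRULI_d5, at 922 and 849 CPM in those labelled DMSO_d10 and at 282 and 208 CPM in those labelled TRULI_d10. Every library named d10 lay below every library named d5, with 320.1 CPM as the highest of the former and 817 CPM as the lowest of the latter. Of the 10 members 40% separated by named day without overlap, 2 higher and 2 lower in d10. Among 10275 genes with a mean of at least 5 CPM the share was 26.6%, so such a split is common in these libraries. Its 5-day log2 fold change was -1.33 ± 0.51 by label, -0.40 ± 0.20 by name, -0.50 without the 4 libraries and -2.12 by label without TRULI_d5 replicate 3. Over the 10 libraries Hspa8 and the mt-Rnr2 share had r = 0.91, Dnajb1 and the share r = 0.78, and Hspa1b and the share r = -0.84. The libraries fall into 2 clusters on this axis, so each r describes the gap between them, and the part of the mt-Rnr2 share in these levels was not tested. Hspa8 contains 3 small nucleolar RNA genes of the Snord14 family.

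**Figure D2:**
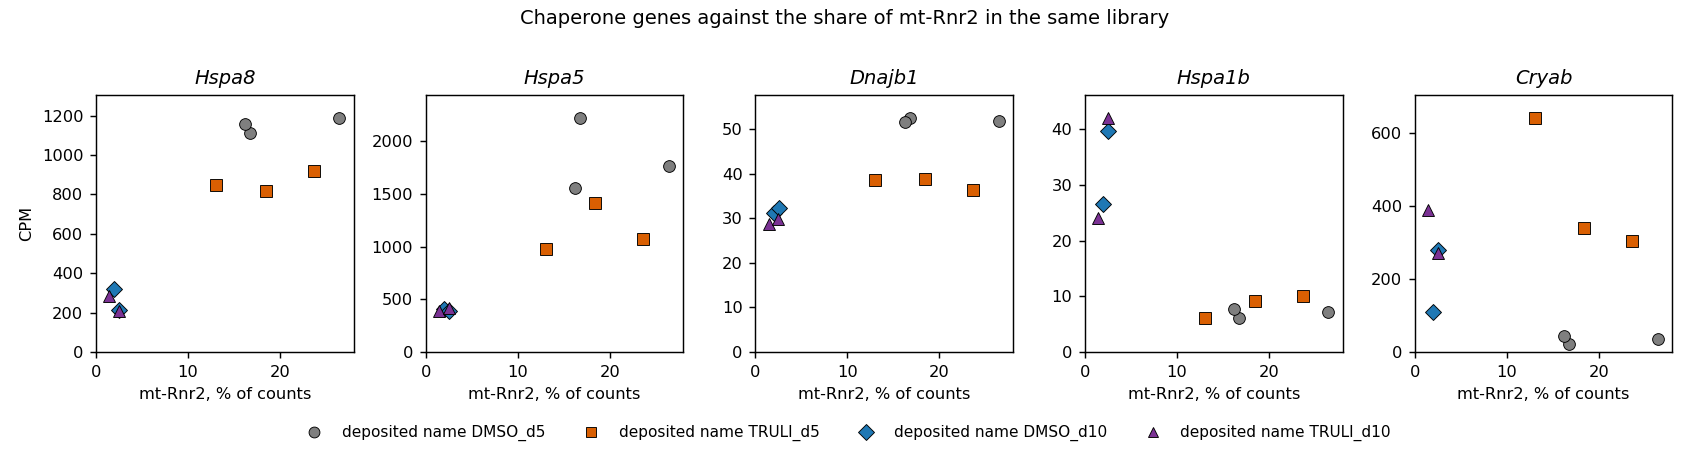
CPM of 4 members and of Hspa5 (vertical axes, from 0) against the percent of counts taken by mt-Rnr2, with 1 point for each library and the deposited name as symbol. Libraries named d10 sit at 1.45% to 2.53% and libraries named d5 at 13.02% to 26.4%; Hspa8 and Hspa5 are higher in the second cluster, Hspa1b in the first, and Cryab spans its whole range within the second.

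Dnajb1, which starts the ATP cycle of Hsp70, varied little within a group. It stood at 51.7 to 52.5 CPM in the 3 libraries labelled DMSO_d5, at 31.2, 32.4 and 38.7 CPM in those labelled TRULI_d5, at 36.4 and 38.6 CPM in those labelled DMSO_d10 and at 28.6 and 29.8 CPM in those labelled TRULI_d10. The DMSO_d5 libraries were the highest of all 10, the 3 named TRULI_d5 came next, and the 4 named d10 were lowest. Its log2 fold change at 5 days was -0.59 ± 0.32 by label, -0.43 ± 0.21 by name and -0.42 without the 4 libraries. Hsp90aa1, the stress-inducible cytosolic Hsp90, ranged from 365 to 955 CPM, with 5-day log2 fold changes of 0.46 ± 0.36 by label, 0.32 ± 0.26 by name and 0.60 without the 4 libraries. Hsph1, the Hsp110 that recharges Hsp70, ranged from 25.8 CPM in the library labelled DMSO_d10 replicate 2 to 79.7 CPM in that labelled DMSO_d5 replicate 2, with -0.07 ± 0.32 by label, -0.33 ± 0.35 by name and -0.13 without the 4 libraries. It was 0.07 by label without DMSO_d5 replicate 2 and -0.008 by name without the library named TRULI_d5 replicate 3. For both genes the labelled and the named 5-day groups overlapped.

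All 10 members passed the filter on low counts in each comparison. At 5 days by label, 1 of 11071 tested genes, or 0.00903%, met the rule for a call, which asks for a log2 fold change larger than 1 in either direction and an adjusted p under 0.05. DESeq2 called 295 genes in these groups, 1515 genes had an unadjusted p under 0.05 in edgeR, and leaving out the library labelled TRULI_d5 replicate 3 gave 2138 calls. By name 354 of 11529 genes, or 3.07%, met it. Because the family was picked from this contrast, no calls are given for its members. The numbers in the deposited names paired the 5-day libraries by the criterion used, and with that number as a replicate block 698 genes were called. Leaving out a single library by name gave from 54 calls, without DMSO_d5 replicate 2, to 386, without the library named TRULI_d5 replicate 3. Without the 4 libraries, edgeR called 134 genes in 3 DMSO libraries against 1 TRULI library, which is assumed to vary as the DMSO libraries do.

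**Figure D3:**
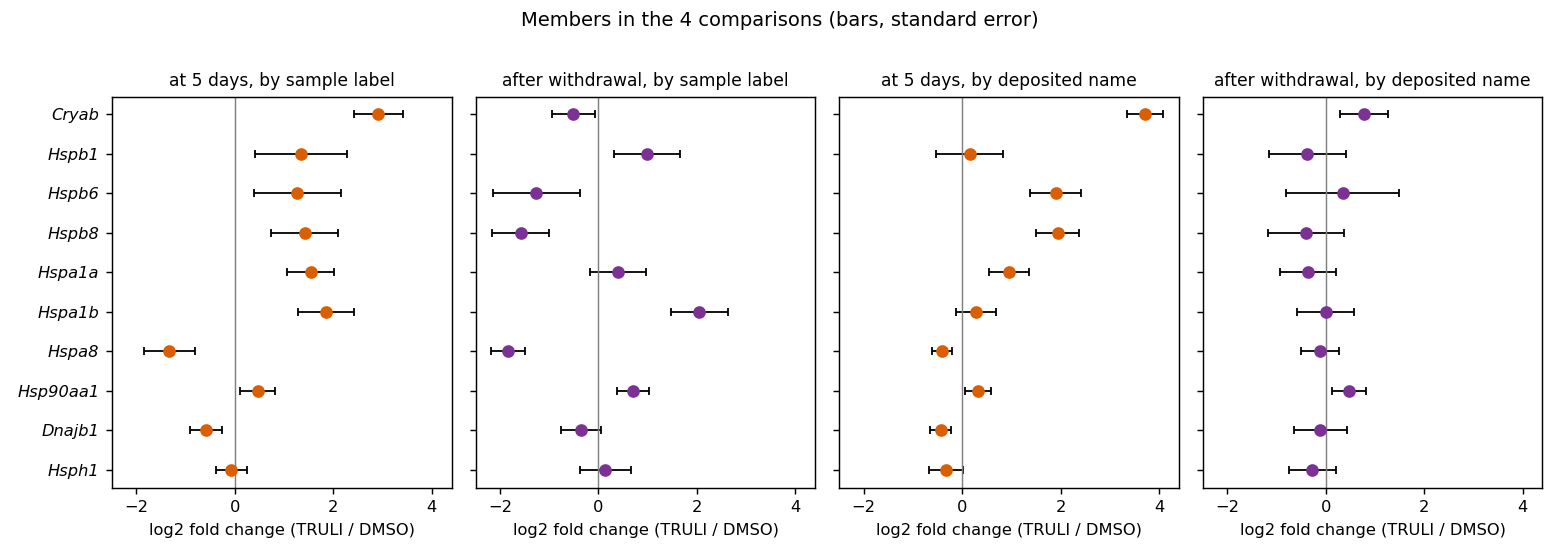
Log2 fold change of TRULI over DMSO for each member in the 4 comparisons, with bars of 1 standard error. Cryab stands at 2.91 and 3.72 at 5 days by label and by name and at -0.51 and 0.78 after withdrawal, and the values of Hspa1b and Hspa8 differ between the groupings.

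After withdrawal the question was whether the difference from DMSO persisted 5 days after TRULI was removed, and by name its 4 libraries were not those from which the family was picked, although earlier results of these data were known. Cryab stood at 110.3 and 279 CPM in the libraries named DMSO_d10 and at 391 and 273.0 CPM in those named TRULI_d10, and the groups overlapped. Its log2 fold change was 0.78 ± 0.49 (edgeR, unadjusted p = 0.147, adjusted p = 1), and it was 1.61 without the library named DMSO_d10 replicate 2 and 0.25 without DMSO_d10 replicate 1. None of the 10 members was called by edgeR, beside 0 of 11568 tested genes, or 0%, with 532 genes at an unadjusted p under 0.05, none of them a member. DESeq2 called 54 genes and 0 members. The other 9 members had log2 fold changes between -0.40 for Hspb8 and 0.48 for Hsp90aa1, each with an adjusted p of 1. Hspa8 stood at 320.1 and 215 CPM against 282 and 208 CPM, and Hspa1b at 26.5 and 39.6 CPM against 24.1 and 42.0 CPM. The 12 hair-cell genes summed to 46.9 and 55.82 CPM in the libraries named DMSO_d10 and to 972.2 and 156.4 CPM in those named TRULI_d10. Of the 8 that passed the filter on low counts, 7 had an unadjusted p under 0.05 and 0 were called by edgeR, with a median log2 fold change of 3.58. Calb2, with 3 counts in each library named DMSO_d10, and Myo15, with a mean of 0.36 CPM there, passed through the libraries named TRULI_d10. The share and the median therefore lean to genes high in that group and are descriptions. By label 1 of 11 tested had an unadjusted p under 0.05 and 0 were called by edgeR, with a median of 0.81. The part of this list in the Cryab value was not tested.

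By label the withdrawal comparison uses the libraries named TRULI_d5 replicates 2 and 3 as DMSO, both of which entered the choice of the family, so that the members are described here without p-values. Cryab then had a log2 fold change of -0.51 ± 0.44, a description, with 304 and 642 CPM against 391 and 273.0 CPM, and it was 0.15 without DMSO_d10 replicate 2 and -0.98 without DMSO_d10 replicate 1. Hspa8 stood at 282 and 208 CPM in the libraries labelled TRULI_d10 against 922 and 849 CPM, a log2 fold change of -1.84 ± 0.34, and leaving out a library gave -2.11 to -1.66. By name the Hspa8 difference was -0.11 ± 0.39. Hspa1b had a log2 fold change of 2.05 ± 0.58 by label and Hspb8 of -1.58 ± 0.58, against 0.005 ± 0.58 and -0.40 ± 0.77 by name. The differences of these 3 genes were thus smaller by name than by label. Of all 12242 tested genes edgeR called 253, or 2.07%, by label. In this comparison the groups also differed in the mt-Rnr2 share, 23.7% and 13.02% against 1.45% and 2.50%, and in Lfng, which was called lower at -2.32 ± 0.44 (edgeR, adjusted p = 0.0463). By name Lfng was not called and went the other way, at 0.98 ± 0.61. Neither difference by label can be told apart from the labelled condition.

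The rest of the chaperone network was read from 62 other genes. By edgeR, 0 of 52 tested were called at 5 days by label, 0 of 53 by name, 1 of 54 after withdrawal by label and 0 of 52 by name, with 4, 5, 12 and 0 at an unadjusted p under 0.05, beside 1515 of 11071, 1887 of 11529, 3001 of 12242 and 532 of 11568 of all tested genes. DESeq2 called 0, 0, 8 and 0, beside 295, 613, 1459 and 54 of all genes. Leaving out the library labelled TRULI_d5 replicate 3 gave 15 calls at 5 days by label, beside 2138 of all genes. The median log2 fold changes of the tested chaperone genes were -0.16, -0.10, -0.08 and 0.09, beside 0.05, 0.03, 0.02 and 0.01 over all tested genes. The called gene was Tcp1, a subunit of the cytosolic chaperonin that folds actin and tubulin, at 53.4 CPM in both libraries labelled TRULI_d10 against 247 and 275 CPM in those labelled DMSO_d10 (log2 fold change -2.28 ± 0.35, edgeR, adjusted p = 0.0353). This call was lost when the condition came from the deposited name, without either library labelled DMSO_d10 and with all 10 libraries in the fit. No other small heat-shock gene passed the filter, and Hspb3, Hspb7 and Cryaa were at 0 in all 10 libraries.

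**Figure D4:**
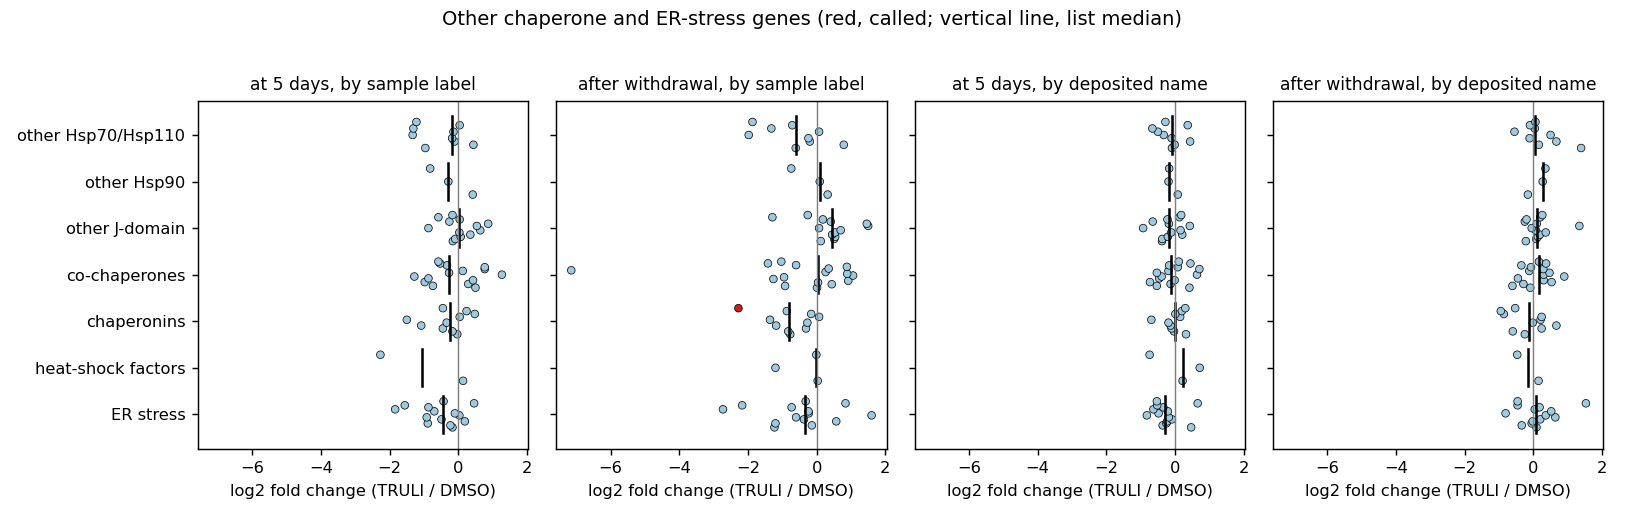
Log2 fold change of TRULI over DMSO for each tested gene of 6 chaperone lists and an ER-stress list, in the 4 comparisons; each point is a gene, red where called, and black lines are list medians. Tcp1 is the only called gene, at -2.28 after withdrawal by label, and the point at -7.15 is Fkbp5, which had no counts in the libraries labelled TRULI_d10.

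Of the 62 other chaperone genes, 4 were higher in every library named d10 than in every library named d5 and 13 were lower, with no filter on level. Among 10275 genes with a mean of at least 5 CPM, 1534 were higher and 1204 lower. Hspa5, the Hsp70 of the endoplasmic reticulum and the most abundant gene of its list at a mean of 564 FPKM, stood at 975 to 2221 CPM in the 6 libraries named d5 and at 386 to 422 CPM in the 4 named d10. Tcp1 stood at 185 to 381 CPM and at 53.4 to 78.3 CPM. Dnajb6, a J-domain protein that keeps aggregating proteins apart, ran the other way, with 84.9 to 138 CPM in libraries named d5 and 259.9 to 292 CPM in those named d10, as did Ptges3, the Hsp90 co-chaperone p23, with 96.5 to 110.5 CPM and 156 to 232 CPM. Hsp90ab1, the constitutive Hsp90, overlapped between them, at 863 to 1379 CPM and 1342 to 1723 CPM, as did Cct4 and Hsbp1. The most abundant chaperonin was Cct4 (mean 172 FPKM), and Hsbp1, which binds heat-shock factor 1, led the factor list at a mean of 224 FPKM, while Hsf4 was at 0 in all libraries. Of 14 ER-stress genes none was called in any of the 4 comparisons by edgeR, with 3, 5, 2 and 0 at an unadjusted p under 0.05 at 5 days and after withdrawal by label and then by name. Over all tested genes the counts in that order were 1515 of 11071, 3001 of 12242, 1887 of 11529 and 532 of 11568. Manf was the most abundant ER-stress gene at a mean of 1829.4 FPKM.

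Marker lists of the tissue are given beside the member values, with the most abundant gene of each list taken by mean FPKM. At 5 days by label edgeR called 0 of 12 supporting-cell genes and 0 of 10 tested hair-cell genes, with 2 and 1 at an unadjusted p under 0.05, and by name it called 1 of 12 and 1 of 10, with 4 and 8. The 12 supporting-cell genes summed to 15396.1 to 18782.7 CPM in the libraries labelled DMSO_d5 and to 8871.1 to 11355.4 CPM in those labelled TRULI_d5, and by name to 9781.7 to 13243.5 CPM in TRULI_d5. Epcam was called lower by name at 5 days, at -1.30 ± 0.26 (edgeR, adjusted p = 0.0241), while 4 of the 12 had a log2 fold change above 0, among them Slc1a3 at 0.96 ± 0.34. The 12 hair-cell genes summed to 256.0, 158.8 and 159.3 CPM in the libraries labelled DMSO_d5, to 46.9, 55.82 and 860.3 CPM in those labelled TRULI_d5 and to 860.3, 546.5 and 201.2 CPM in those named TRULI_d5. Calb2 was their most abundant gene, and Espn was called higher by name at 2.70 ± 0.62 (edgeR, adjusted p = 0.0426). The 8 mesenchymal genes summed to at most 126 CPM, and 3 of them were tested at 5 days by name. Postn was called higher by name at 5.32 ± 1.04 (edgeR, adjusted p = 0.0221), while Col1a2 stood at 1.44 ± 0.48 and Pdgfra at -0.29 ± 0.35. Postn had 2, 1 and 2 counts in the libraries labelled DMSO_d5 and 33, 211 and 21 in those named TRULI_d5. It passed the filter on low counts only through the latter, so its call is a description. Of 7 macrophage genes only 1, Cd68, was tested at 5 days by label and by name, so it does not speak for the list. Cd68 had 4 counts in each library labelled DMSO_d5 and passed the filter on low counts only through the TRULI libraries. Its p-values are therefore descriptions. Its 5-day log2 fold change was 2.17 ± 0.67 by label (edgeR, unadjusted p = 0.0101). By name it was 2.24 ± 0.54 (edgeR, unadjusted p = 0.00176), and Cd68 was called in neither. After withdrawal by label 2 of the 12 supporting-cell genes were called, Lfng and the glutamate transporter Slc1a3, which was lower at -2.50 ± 0.37 (edgeR, adjusted p = 0.0327), while 4 had a log2 fold change above 0, among them Epcam at 0.75 ± 0.35. By name 0 of the 12 were called by edgeR and 0 had an unadjusted p under 0.05. There Lfng stood at 0.98 ± 0.61, Slc1a3 at -0.07 ± 0.34 and Epcam at -0.13 ± 0.30. In the withdrawal comparison by label Myod1, a muscle transcription factor, had 0 counts in both libraries labelled DMSO_d10 and 83 and 237 counts in those labelled TRULI_d10 (called, edgeR, adjusted p = 0.0384). Myod1 passed the filter on low counts there only through the libraries labelled TRULI_d10, so this call is a description. It also had 218 and 248 counts in the libraries named DMSO_d10, and by name it was not called, at -0.98 ± 0.71. The 7 skeletal-muscle genes summed to 36.55, 97.24, 17.09 and 51.79 CPM in the 4 libraries named d10 and to at most 6.009 CPM in the others, and Myog was at 0 throughout, with Des, Acta1, Ckm and Myh3 also at 0 in both libraries labelled TRULI_d10. The Schwann-cell list summed to 54.9 to 146 CPM, with Mbp most abundant, the melanocyte list to at most 14.15 CPM, with Pmel most abundant and Tyr, Mlana and Tyrp1 at 0, and the dark-cell list to 149 to 265 CPM, with Atp1b2 most abundant and Kcne1 and Bsnd at 0. The part of these cell types in the values of Cryab and the other members was not tested.

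Among the genes whose levels over the 10 libraries were most like those of Cryab, by Pearson r of log2(CPM + 1) among 10275 genes with a mean of at least 5 CPM, were Endod1 (r = 0.98), Reep1 (0.94), Dctd (0.94) and Rad18 (0.94). Endod1 stood at 69.7 to 128 CPM in the libraries labelled DMSO_d5 and at 170 to 318 CPM in the other 7. None of the 9 other members came as close. The highest r between Cryab and a member was 0.55, with Hspb8, and the lowest was -0.76, with Dnajb1. These values describe 10 libraries that share conditions and carry no test.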

How the data were processed

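RNA of sorted supporting cells was measured in 10 libraries. Per the labels and methods, the authors aligned reads with STAR to GRCm38 (mm10) and deposited 1 table of expected counts for each library; the counting program and its use of strand are not stated. The methods name a single-cell RNA kit and the labels a poly(A) kit. The expected counts were rounded and tested with edgeR 4.0.16 (filterByExpr, TMM, quasi-likelihood test, Benjamini-Hochberg over all tested genes), with only the groups compared in each fit. Standard errors are the size of the log2 fold change over the square root of F. FPKM uses effective lengths and the sum over 21695 protein-coding genes, and 48349 of 48709 genes were matched to GENCODE release 21. A floor of 3 counts equals 0.471 to 1.202 CPM, and intervals of that kind cover counting error only. The edgeR fit was tried on simulated counts without the division of libraries by named day, so that trial does not cover groups that mix them. Every pair of libraries differed by more than counting error (chi-square per degree of freedom at least 15.26).

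The members and lists were chosen with earlier results of these data known. Members carry no p-value in contrasts that use libraries from which the family was picked. After withdrawal by label this replaced planned tests of 9 members, of which edgeR had called Hspa8, beside 253 of 12242 tested genes. That call was lost by deposited name, with all 10 libraries in the fit and without either library labelled DMSO_d10, and it is not used here. Named genes are the members, each list's called genes (at most 5 a direction) and most abundant gene, and the 5 genes most like Cryab, of which not all are reported. By deposited name at 5 days the deviations of same-numbered libraries correlated at 0.33, 0.16 and 0.27, all over 0.1, so the numbers pair them by the data, not by a stated design. Alternatives were the deposited name, DESeq2 1.42.0, its size factors, no filter, protein-coding genes only, all 10 libraries in 1 fit, the replicate block, no fold threshold and each library left out.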

Additional observations from a re-analysis of the deposited data

How the results depend on the processing

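Counts of called genes are given in the order at 5 days by label (main 1), after withdrawal by label (253), at 5 days by name (354) and after withdrawal by name (0). DESeq2 called 295, 1459, 613 and 54 genes, a fit with no filter 646, 1751, 902 and 197, and all 10 libraries in 1 fit 2, 0, 109 and 0. Taking the condition from the deposited name gave 354 in place of 1 and 0 in place of 253. Leaving out each library gave 0 to 2138, 8 to 3154, 54 to 386 and 0 to 4, where a lone library is assumed to vary like the others. Without the 4 libraries whose label and name differ, an alternative added for these counts after the data were seen, 134 genes were called at 5 days.

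Other chaperone genes called after withdrawal by label (main 1) were 0 by deposited name, 8 with DESeq2, 8 with no filter, 0 with all 10 libraries and 0 to 12 with a library left out. At 5 days by label (main 0) they were 1 with no filter and 0 to 15 with a library left out.

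With the replicate block, 0 genes were called at 5 days by label, 1269 after withdrawal by label, with 7 other chaperone genes, and 698 at 5 days by name; the other counts given here were the same with it. By label the same-number correlations were -0.12, 0.05 and -0.16, and not every library correlated best with its own number. In the groups of 2 they were 0.19 by label and 0.16 by name. Hspa1b after withdrawal by name went from 0.005 to -0.016 with the replicate block and to -0.005 with DESeq2 size factors.

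After withdrawal by label, the deposited name turned the log2 fold changes of Cryab (-0.51 to 0.78), Hspb1 (0.99 to -0.37), Hspb6 (-1.26 to 0.35), Hspa1a (0.40 to -0.36) and Hsph1 (0.14 to -0.27). Leaving out a library gave -0.10 to 1.12 for Hspa1a and -0.40 to 1.0 for Hsph1. By name it gave -0.96 to 0.61 for Hspb1, -1.07 to 1.06 for Hspb6, -1.07 to 0.049 for Hspb8, -0.44 to 0.34 for Hspa1b and -0.37 to 0.19 for Hspa8. After withdrawal by name the members kept direction in 91 of 100 alternatives. No gene was called there in the main fit, so staying uncalled carries little information. After withdrawal by label 94 of 110 alternatives stayed the same by the measure used for each gene. At 5 days the members stayed within 1 SD in 125 of 140 and 119 of 120, by label and by name. That measure is wide, since it counts Hspb1 at 0.16 by name as the same as 1.34 by label.

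Counts of calls changed with the grouping by label or by name and with single libraries, and the groups were not reassigned from the values. Groups of 2 or 3 libraries are small. The libraries named d10 differ from those named d5 in mt-Rnr2 and Lfng, and the cause was not tested.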
